A study of Homo sapiens with 23 samples.

Results

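The clones H6 and I4 of the PARG-inducible PC-3 line were compared with each other after doxycycline treatment. PC-3 is an established human prostate cancer cell line. The cells had been transduced with a lentivirus that carries a PARG cDNA, with the fluorescent protein mClover3 attached by a cleavable link, under the doxycycline-inducible TetOne promoter, and single clones were then grown. The comparison covered 10756 genes of 21463 in the deposited table, namely those whose 4 listed levels (the higher group mean of each clone and experiment) averaged at least 1 RPKM (read count scaled to exon length and to library depth). It used 12 of the 23 libraries. Every treated group had 500 ng/ml doxycycline for 72 h in 3 wells of a 6-well plate: I4 and H6 at passage 5 in experiment N, and I4 and H6 at passage 7 in experiment B. Groups without doxycycline, which carry the same construct and were grown for the same 72 h, are given beside the treated ones; they had 3 wells each, except 2 for H6 in experiment B. The experiments also differ in sequencing centre and library kit, so each clone was compared only within an experiment.

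The table holds group means and no value per library, so the difference between the clones has no error and no test. Agreement of the 2 experiments is the check, and a gene was called where the means of the clones differed at least 2-fold, the same way, in both. The difference is log2((H6 + 0.1)/(I4 + 0.1)), with 0.1 RPKM added to each mean, so it understates the difference of low genes. The lines are 1 clone each and the wells are cultures of that clone. Insertion site of the construct, passage history and any other property of the clone therefore cannot be told apart from PARG level, and cells that lack it altogether are not analysed here. In bulk RNA, fewer cells that express a gene and less RNA per cell cannot be told apart either.

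PARG is the main enzyme that cleaves the poly(ADP-ribose) chains which PARP1 and PARP2 attach to proteins and to themselves at DNA breaks and in chromatin. PC-3 cells grow without androgen and are known for constitutive NF-kB activity, a transcription factor system whose targets include interleukins, CXC chemokines and the adhesion molecule ICAM1. NF-kB target genes often encode inhibitors of the pathway itself, so that its output is limited by feedback.

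Both treated clones showed the PC-3 pattern. The 8 line markers (among them KRT8, KRT18 and VIM) summed to between 768 and 839 RPKM in the 4 treated groups, and KLK2, a prostate-lineage protease gene, was listed at 0 in all of them. Markers of blood cells summed to between 0.210 and 0.372 RPKM and endothelial markers to between 3.05 and 3.73 RPKM. Fibroblast markers summed to 10.0 (I4) and 16.4 (H6) RPKM in experiment N and to 6.74 and 12.3 RPKM in experiment B, most of it COL1A1, and their part in the differences below was not tested. The summed levels of all genes lay between 270373 and 284182 RPKM in the 4 treated groups, and the median difference between the clones was 0.03 in each experiment.

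PARG itself, the induced gene, was higher in treated H6 in both experiments but was not called. The treated PARG means were 29.3 RPKM in I4 and 56.2 RPKM in H6 in experiment N, and 37.7 and 54.6 RPKM in experiment B. The log2 difference was 0.94 in N and 0.53 in B. Without doxycycline the PARG means were 21.6 and 26.1 RPKM in N and 26.9 and 27.4 RPKM in B, a log2 difference of 0.27 and 0.03. Both clones thus started from similar levels, and H6 reached the higher one. A read from the PARG cDNA and a read from the cell's own PARG gene cannot be told apart in this value. In the authors' deposited table the PARG fold with doxycycline was 1.35 and 1.40 in I4 (q = 9.06e-09 and 1.37e-10) and 2.15 and 1.99 in H6 (q listed as 0), in N and B; q compares wells of 1 clone.

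Most genes differed little between the treated clones. The difference was under 1.5-fold for 92.3% of genes in N and 89.7% in B. With the call in both experiments, 113 genes (1.05% of those tested) were higher in H6 and 47 (0.437%) were higher in I4, and no gene passed 2-fold in opposite directions. Of the 205 genes past 2-fold in N, 203 had the same sign in B, and of the 231 past 2-fold in B, 228 had the same sign in N. The 160 called genes are 78.0% of the first list and 69.3% of the second. Across genes, which are not independent replicates and come from the same 2 clones, the differences in N and B had a Pearson r of 0.89 and a Spearman rho of 0.84. The gap between N and B for a gene had a median of 0.12 on the log2 scale and a 95th percentile of 0.32, which was 0.41 for genes whose listed levels averaged 1 to 3 RPKM and 0.27 for those at 10 RPKM or more. A difference near the threshold is therefore not separated from it: TRPV4, a cation channel gene, lay just inside with 1.11 and 1.02, and PLEKHF1 just outside with 0.99 and 1.07.

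**Figure D1:**
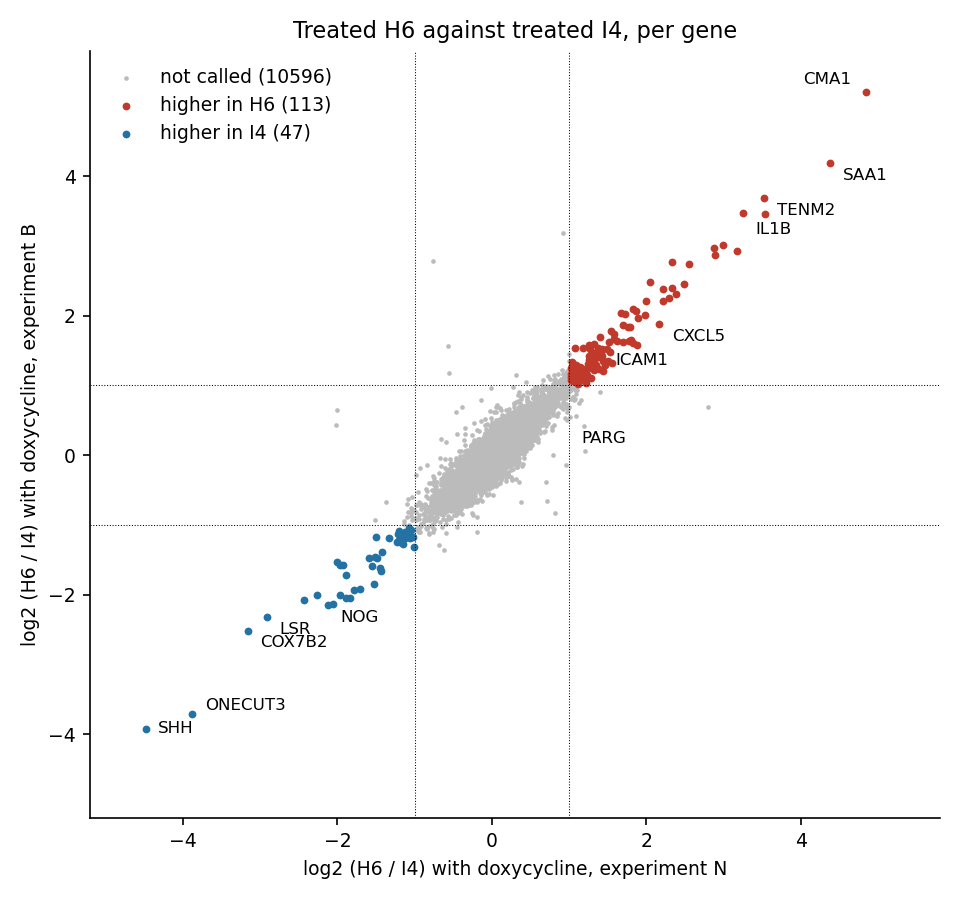
Log2 difference between treated H6 and treated I4 (0.1 RPKM added) in experiment N (x axis) and experiment B (y axis). Each point is 1 of 10756 genes, dotted lines mark the 2-fold threshold, and 113 genes lie past it towards H6 and 47 towards I4. The place of CMA1, which is listed at 0 in I4, is set by the added 0.1 RPKM.

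The genes furthest towards H6 include those of a cytokine, a transcription factor and a complement protease. IL1B (chr2:112829751-112836903, minus strand) encodes interleukin-1 beta, a cytokine that activates NF-kB in the cells it reaches. Treated IL1B means were 6.79 RPKM in I4 and 65.6 RPKM in H6 in N, and 8.37 and 94.1 RPKM in B, a log2 difference of 3.25 and 3.47. The lowest H6 mean was well above the highest I4 mean. CREB3L1, a membrane-bound transcription factor that is cleaved and released under endoplasmic reticulum stress, had 0.818 (I4) and 7.20 (H6) RPKM in N and 0.759 and 6.83 RPKM in B (2.99 and 3.01). In both genes the difference was of like size in the 2 experiments.

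Further genes at this end were low in I4. The complement protease gene C1S had treated means of 0.248 (I4) and 3.95 (H6) RPKM in N and 0.341 and 4.74 RPKM in B (log2 difference 3.54 and 3.46), while its partner C1R differed less, at 6.10 and 13.6 RPKM in N and 5.57 and 12.9 RPKM in B (1.14 and 1.19). TENM2, a teneurin of cell contacts, had 0.185 and 3.18 RPKM in N and 0.312 and 5.20 RPKM in B (3.52 and 3.69). CMA1, the gene of the protease chymase, was listed at 0 in treated I4 in both experiments and at 2.76 and 3.59 RPKM in treated H6, so no fold is given. SAA1, an acute-phase protein gene, had 0.0366 and 0.0397 RPKM in I4, which corresponds to about 3 and 2 reads over the group, and 2.75 and 2.45 RPKM in H6. SAA1 has a near-identical neighbour gene, as HLA-B has near relatives, and how the authors' counting split such reads is unknown. Among the 15 genes with the largest smaller-of-2 difference towards H6 were also RTN4RL2, HEPHL1, SERPINB3, EFEMP1, CALHM2, XK and a table row named IGF2_1, with log2 differences between 2.26 and 3.18. For the whole list of 113, 18 genes differed at least 4-fold and 5 at least 8-fold in both experiments.

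The genes furthest towards I4 include developmental signalling genes. SHH (chr7:155799986-155812273, minus strand) encodes the secreted morphogen sonic hedgehog, and its treated means were 3.80 (I4) and 0.0744 (H6) RPKM in N and 2.75 and 0.0873 RPKM in B, a log2 difference of -4.48 and -3.93. The H6 means rest on about 40 and 22 reads, and the estimate for B may be too low. NOG, which encodes the BMP antagonist noggin, had 14.4 and 3.22 RPKM in N and 5.12 and 1.08 RPKM in B (-2.12 and -2.15). ONECUT3, a homeodomain transcription factor gene, had 4.95 and 0.243 RPKM in N and 3.37 and 0.164 RPKM in B (-3.88 and -3.72). For these genes each I4 mean was above both H6 means.

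LSR, which encodes a receptor of tricellular junctions, had 8.58 (I4) and 1.05 (H6) RPKM in N and 3.60 and 0.641 RPKM in B (-2.91 and -2.32). COX7B2, a cytochrome c oxidase subunit gene, differed by -3.16 and -2.52, and NTSR1, the neurotensin receptor gene, by -2.43 and -2.08. The well expressed members included CALB1, a calcium-binding protein gene, with 66.6 and 19.2 RPKM in N and 84.7 and 22.1 RPKM in B, and SULF2, a gene of an enzyme that removes sulfate groups from heparan sulfate, with 108 and 29 RPKM in N and 105 and 32.0 RPKM in B. PLXNA4, PTPRU, LRRC38, NUDT11, ZNF439, SLITRK6 and ALDH3A1 complete the 15 genes with the largest differences towards I4, with log2 differences between -2.26 and -1.58. Of the 47 genes, 8 differed at least 4-fold and 2 at least 8-fold in both experiments.

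Most of these differences were present without doxycycline. By the same rule 89 genes (0.827%) were higher in H6 and 39 (0.363%) were higher in I4 without doxycycline, 128 in all. Of the 160 genes called with doxycycline, 97 (60.6%) were also called without it in the same direction, and these are 75.8% of the 128. They were 68 of the 113 genes higher in H6 and 29 of the 47 higher in I4, and no gene was called the opposite way. The sign without doxycycline was the same in both experiments for 112 of the 113 and for all 47. IL1B had untreated means of 36.3 (I4) and 217 (H6) RPKM in N and 55.3 and 342 RPKM in B, a log2 difference of 2.57 and 2.63. SHH differed by -4.58 and -4.02 without doxycycline, ONECUT3 by -3.34 and -3.14, and CREB3L1 by 2.79 and 3.03.

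**Figure D2:**
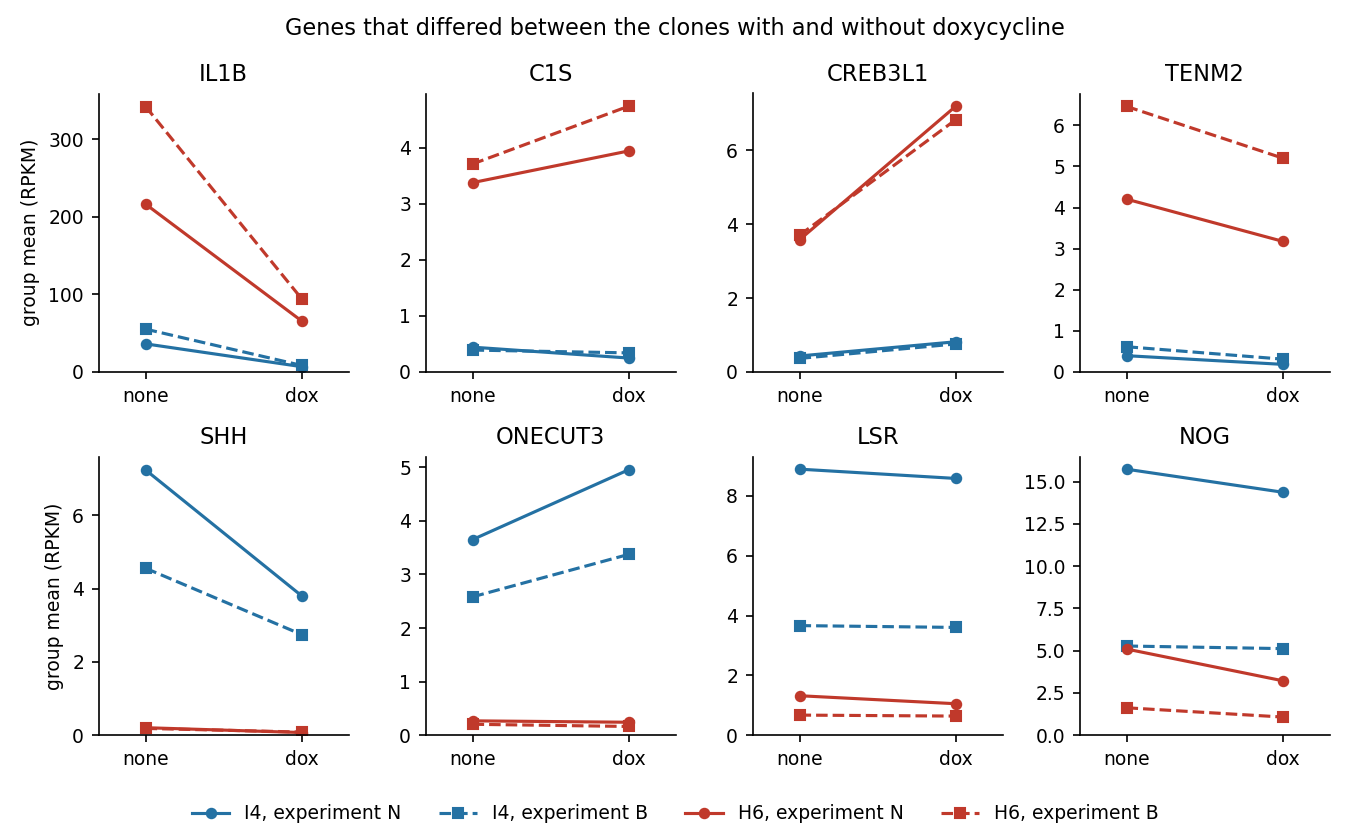
Group means in RPKM (y axis, from 0) without and with doxycycline for 4 genes higher in H6 (upper row) and 4 higher in I4 (lower row), with I4 in blue and H6 in red, circles for experiment N and squares for experiment B. In each panel the clones are apart within each experiment, with and without doxycycline, as for SHH, whose H6 means stay at or below 0.207 RPKM.

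The level in both clones could move with doxycycline while a gap in the same direction remained, alike in size or larger. For IL1B the log2 gap was larger with doxycycline (3.25 in N and 3.47 in B) than without (2.57 and 2.63). In the authors' deposited table IL1B fell with doxycycline in I4 (5.34-fold in N and 6.61-fold in B) and in H6 (3.30-fold and 3.64-fold), with every q listed as 0. The same table has CREB3L1 higher with doxycycline in both clones, 1.89-fold and 2.07-fold in I4 (q = 0.00292 and 0.00145) and 2.01-fold and 1.85-fold in H6 (q listed as 0). IL6, the interleukin-6 gene, had treated means of 0.475 (I4) and 2.28 (H6) RPKM in N and 0.453 and 2.99 RPKM in B, against 1.57 and 5.95 RPKM and 2.40 and 8.30 RPKM without doxycycline. Its clone difference was 2.05 and 2.48 with and 1.86 and 1.75 without.

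Among the 113 genes higher in treated H6, by the authors' deposited q under 0.05 in both experiments, 37 fell in I4 with doxycycline (6.29% of all genes did), 6 rose in I4 (5.55% of all), 27 fell in H6 (4.13% of all) and 15 rose in H6 (3.6% of all). Among the 47 higher in treated I4, 8 fell and 12 rose in I4, and 11 fell and 2 rose in H6. The members were chosen on the treated means that enter these folds, so the counts describe how the treated levels were reached and support nothing further. For the same reason a smaller gap without doxycycline is favoured by the choice: it was smaller in both experiments for 81 of the 113 and 35 of the 47. In the reverse direction, 37 of the 89 genes called towards H6 without doxycycline and 17 of the 39 called towards I4 had a larger gap with it in both experiments.

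In 9 genes the gap without doxycycline was under 50% of the treated gap, on the log2 scale, in both experiments, and all 9 were higher in H6. They were LCN2, ICAM1, CXCL6, C15orf48, IL7R, CSF3, INPP4B, PI3 and INAVA, the last 1 being outside the rule for named genes and added after its values were seen. No gene higher in I4 met this condition. Promoters are printed for the 3 of the 9 genes that hold a match to the NF-kB consensus in the 300 bases around the start (250 before and 50 after it) and for ICAM1, whose values come next. The sequences are from RefSeq on GRCh38.p14, 5′ to 3′ on the gene's strand, and capitals mark the bases that match the consensus on either strand. CXCL6 is at chr4:73836428-73836727 (plus strand), LCN2 at chr9:128149203-128149502 (plus strand), INAVA at chr1:200891281-200891580 (plus strand) and ICAM1 at chr19:10270870-10271169 (plus strand).
CXCL6: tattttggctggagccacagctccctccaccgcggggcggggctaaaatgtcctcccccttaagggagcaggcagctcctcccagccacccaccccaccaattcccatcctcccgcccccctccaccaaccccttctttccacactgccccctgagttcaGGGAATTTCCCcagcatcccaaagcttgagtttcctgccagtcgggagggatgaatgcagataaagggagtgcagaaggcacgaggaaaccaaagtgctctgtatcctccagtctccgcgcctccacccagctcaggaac
LCN2: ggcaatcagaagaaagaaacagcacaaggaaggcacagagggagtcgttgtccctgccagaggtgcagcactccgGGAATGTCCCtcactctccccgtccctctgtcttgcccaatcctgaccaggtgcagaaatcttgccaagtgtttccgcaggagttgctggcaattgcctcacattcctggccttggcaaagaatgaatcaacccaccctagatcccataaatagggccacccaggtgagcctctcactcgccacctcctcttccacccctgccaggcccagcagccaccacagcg
INAVA: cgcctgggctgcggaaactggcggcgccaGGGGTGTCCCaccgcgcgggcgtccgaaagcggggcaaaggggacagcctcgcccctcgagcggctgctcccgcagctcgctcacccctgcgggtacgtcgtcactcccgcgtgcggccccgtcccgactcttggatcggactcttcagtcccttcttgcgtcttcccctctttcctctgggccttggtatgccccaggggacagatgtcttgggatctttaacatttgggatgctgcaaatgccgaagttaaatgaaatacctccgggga
ICAM1: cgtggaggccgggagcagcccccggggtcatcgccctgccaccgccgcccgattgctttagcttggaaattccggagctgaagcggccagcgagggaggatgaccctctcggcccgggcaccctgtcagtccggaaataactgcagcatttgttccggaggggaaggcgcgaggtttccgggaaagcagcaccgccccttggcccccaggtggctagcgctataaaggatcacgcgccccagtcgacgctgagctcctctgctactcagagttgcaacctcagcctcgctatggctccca

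The NF-kB consensus was GGGRNNYYCC or its reverse complement GGRRNNYCCC, where R is A or G, Y is C or T and N is any base. CXCL6 holds 2 overlapping matches, 1 on each strand, and LCN2 holds 1. INAVA holds 1 stretch that fits the consensus on both strands and was counted as 1 match. Of the 9 genes, 6 had a promoter in the RefSeq table and 3 of those held a match, against 13.1% of the 8650 tested genes with a promoter and 10.8% of all 27305 promoters. A match was found in 15 of 77 genes higher in H6 (19.5%) and in 2 of 35 genes higher in I4 (5.71%). For the AP-1 consensus TGANTCA, the counts were 5 of 77 (6.49%) and 5 of 35 (14.3%), against 4.2% of the tested genes and 7.76% of all promoters. The share was thus larger among genes higher in I4. LCN2 holds 1 such match, apart from the capitals. A match is a description of letters, not a site, and the promoters of ICAM1, IL7R and INPP4B only lack these letters in this window.

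ICAM1, the intercellular adhesion molecule, differed between the clones by 0.19 and 0.25 without doxycycline and by 1.43 and 1.53 with it, on the log2 scale. Its means went from 35.1 to 14.3 RPKM in I4 and from 40.1 to 38.7 RPKM in H6 in experiment N, and from 39.2 to 14.4 RPKM and from 46.6 to 41.6 RPKM in experiment B. In the authors' deposited table ICAM1 fell 2.46-fold and 2.73-fold in I4 (q listed as 0), and had folds of -1.04 and -1.12 in H6 (q = 0.862 and 0.268). The larger move was thus in I4.

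LCN2, which encodes the siderophore-binding protein lipocalin 2, went from 3.56 to 0.817 RPKM in I4 and from 4.40 to 3.08 RPKM in H6 in N, and from 4.95 to 0.804 RPKM and from 5.46 to 3.12 RPKM in B. The LCN2 gap was 1.79 and 1.83 with doxycycline and 0.30 and 0.14 without. CXCL6, a chemokine that attracts neutrophils, fell in both clones, from 55.8 to 8.16 RPKM in I4 and from 77.1 to 23.4 RPKM in H6 in N, and from 43.2 to 5.55 RPKM and from 52.6 to 14.3 RPKM in B. Its folds in the authors' deposited table were -6.84 and -7.79 in I4 and -3.30 and -3.68 in H6, with q listed as 0. PI3, the elastase inhibitor elafin, went the same way in both clones, to 75.6 (I4) and 155 (H6) RPKM in N and to 66.9 and 170 RPKM in B. C15orf48 gave treated gaps of 1.33 and 1.39 where the untreated ones were -0.01 and -0.09.

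CSF3, the gene of granulocyte colony-stimulating factor, fell most: from 6.97 to 0.233 RPKM in I4 and from 9.92 to 0.600 RPKM in H6 in N, and from 6.12 to 0.0764 RPKM and from 9.36 to 0.412 RPKM in B. All 4 treated CSF3 means are below 1 RPKM, and the I4 mean of B rests on about 12 reads. By the authors' deposited q under 0.05 in both experiments, 8 of the 9 genes fell in I4, 4 fell in H6 and 3 rose in H6. IL7R and INAVA were among the 3 that rose in H6 while they fell in I4. For IL7R, the interleukin-7 receptor gene, the means went from 10.3 to 6.87 RPKM in I4 and from 13 to 16 RPKM in H6 in N, and from 15.8 to 10.4 RPKM and from 18.2 to 23.2 RPKM in B. INPP4B, a lipid phosphatase gene, rose in H6 in both experiments, and in I4 its q was 0.0234 in N and 0.111 in B in the authors' deposited table.

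**Figure D3:**
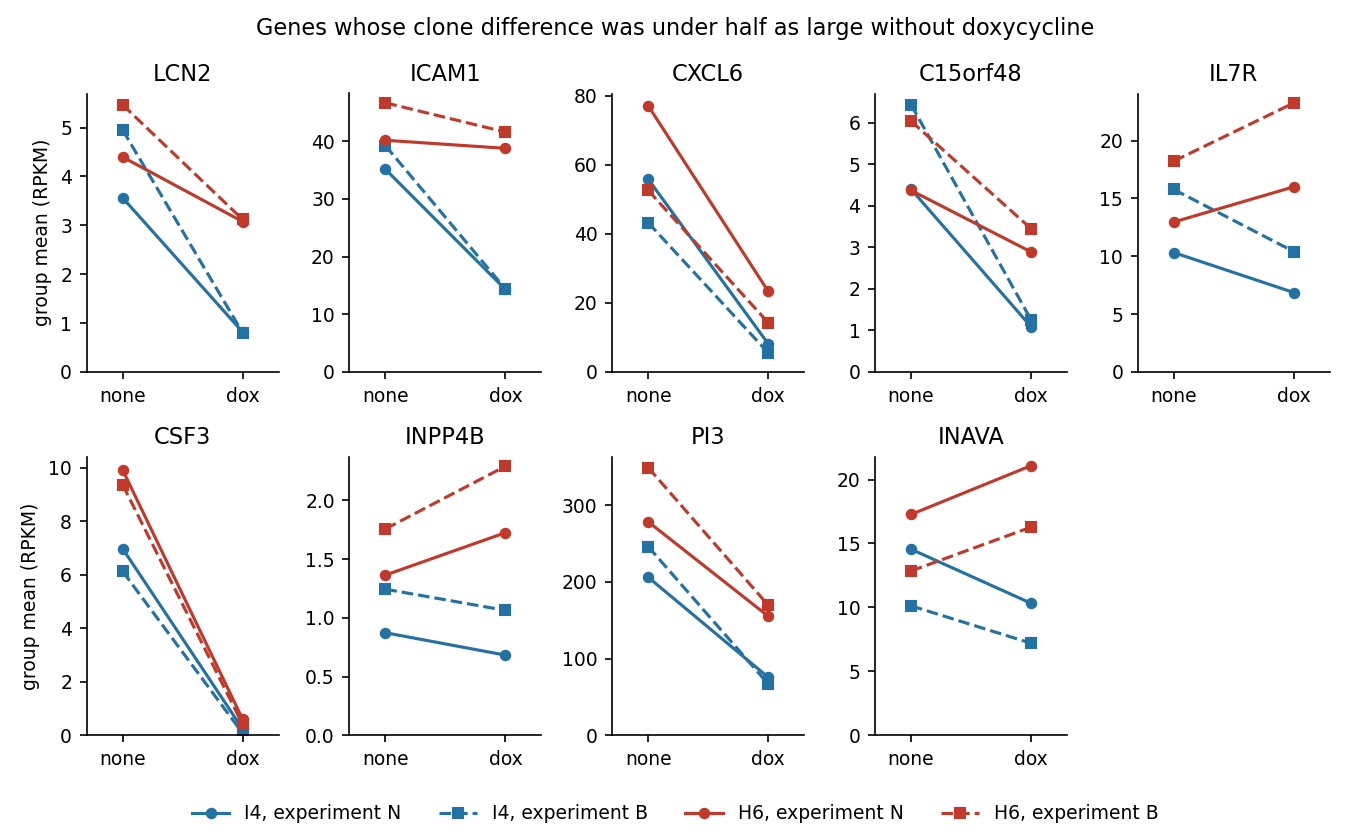
Group means in RPKM (y axis, from 0, with its own scale in each panel) without and with doxycycline for the 9 genes whose gap between the clones was under 50% as large without doxycycline. I4 is blue and H6 red, with circles and full lines for experiment N and squares and dashed lines for experiment B. With doxycycline both H6 means of each gene lie above both I4 means, as for ICAM1 (38.7 and 41.6 against 14.3 and 14.4 RPKM).

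In 3 genes the gap without doxycycline met the 2-fold rule and the gap with it was under 50% of that in both experiments. BMP2, a BMP ligand gene, had untreated means of 2.17 (I4) and 0.486 (H6) RPKM in N and 1.73 and 0.302 RPKM in B, a log2 difference of -1.95 and -2.19. With doxycycline the BMP2 means were 0.285 and 0.153 RPKM and 0.216 and 0.0935 RPKM, and the difference was -0.60 and -0.71. The same held for S100P (-1.18 and -1.62 without, -0.28 and -0.52 with) and for SYT16, which was higher in H6 (1.42 and 1.26 without, 0.62 and 0.32 with).

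The gene lists place these genes among others of the same role. For a list, the number called and the median over its tested members of the mean of the N and B differences are given, beside 0.03 for the median of all genes. The share called over all genes, to be set beside each list, was 1.05% towards H6 and 0.437% towards I4. Of 10 tested chemokine genes, 2 were higher in H6 by the call (CXCL5 and CXCL6), none in I4, and all 10 were positive in both experiments, which 45.5% of all genes were. The median was 0.84 in N and 0.89 in B with doxycycline, and 0.11 and 0.14 without. CXCL5 had treated means of 5.58 (I4) and 25.4 (H6) RPKM in N and 4.53 and 16.9 RPKM in B (2.17 and 1.88), and CXCL8, the interleukin-8 gene, had 6.17 and 12.1 RPKM in N and 7.31 and 13 RPKM in B (0.96 and 0.82), short of the call. Without doxycycline CXCL8 was lower in H6, at 48.1 (I4) and 36.6 (H6) RPKM in N and 58.9 and 41.5 RPKM in B. CXCL1, CXCL2 and CXCL3 had treated differences of 0.93 and 0.91, 0.90 and 1.22, and 0.78 and 0.63, against untreated ones at or below 0.

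In the list of colony-stimulating factors and IL-6 and IL-1 family genes, 5 of 11 were called towards H6 (IL1B, IL6, CSF1, CSF3 and IL7R) and none towards I4, with a median of 0.83. IL7R was placed in this list but belongs to none of the families in its name. Over all genes 1.05% were called towards H6 and 0.437% towards I4. CSF1, the macrophage colony-stimulating factor gene, had treated means of 1.00 (I4) and 2.72 (H6) RPKM in N and 0.698 and 2.01 RPKM in B (1.36 and 1.40). LIF, another cytokine of the IL-6 family, had 10.7 and 18.4 RPKM in N and 8.29 and 15.5 RPKM in B (0.77 and 0.90). IL37, an IL-1 family gene outside the list, was called towards H6 too (2.21 and 2.39). IL1RL1, the IL-33 receptor gene and also outside the list, was called towards I4 (-1.06 and -1.19).

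The list of NF-kB subunit, inhibitor and feedback genes also holds target genes such as ICAM1, an adhesion molecule. Of its 20 tested genes, 2 were called towards H6 (TNFAIP2 and ICAM1) and none towards I4, against 1.05% and 0.437% of all genes. The subunit and inhibitor genes named below were not called. The list's median was 0.35 in N and 0.47 in B with doxycycline and -0.07 and -0.05 without. In all 20 the difference was further towards H6 with doxycycline than without in both experiments, where 38.2% of all genes were. By the authors' deposited q under 0.05 in both experiments, 18 of the 20 fell in I4 and 8 fell in H6, and none rose in either. Of all genes, 6.29% fell and 5.55% rose in I4, and 4.13% fell and 3.6% rose in H6. TNFAIP3, which encodes the feedback inhibitor A20, had treated means of 2.45 (I4) and 3.02 (H6) RPKM in N and 3.17 and 3.79 RPKM in B, and untreated means of 8.10 and 4.90 RPKM and 10.2 and 6.46 RPKM. NFKBIA, the gene of the inhibitor IkB alpha, was lower in H6 without doxycycline (-0.94 and -0.97) and nearly level with it (-0.16 and -0.21). The subunit genes RELA, NFKB1 and REL differed by at most 0.27 with doxycycline.

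Genes of interferon response and antigen presentation leaned the same way with few calls, where 1.05% of all genes were called towards H6 and 0.437% towards I4. Of 31 tested interferon-stimulated genes, IRF9 was called towards H6 and IFI44L towards I4, and the median was 0.30 in N and 0.35 in B with doxycycline and 0.09 in each without. IRF9, a subunit of the interferon-activated transcription factor, had treated means of 2.33 (I4) and 4.88 (H6) RPKM in N and 1.26 and 3.19 RPKM in B. IFI44L went the other way, with 4.12 and 1.46 RPKM in N and 5.58 and 1.69 RPKM in B (-1.44 and -1.67), so the list was not uniform. Of 13 MHC class I and antigen presentation genes, HLA-B alone was called (23.9 and 56.0 RPKM in N, 16.3 and 38.4 RPKM in B). In this list 12 were positive in both experiments, against 45.5% of all genes. The difference of all 13 was further towards H6 with doxycycline in both experiments, against 38.2% of all genes. PSMB9, an immunoproteasome subunit gene, had 0.81 and 1.08 with and 0.05 and 0.13 without doxycycline.

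Of 20 endoplasmic reticulum folding genes none was called (1.49% of all genes were), and 17 were positive in both experiments (45.5% of all genes). The median was 0.49 in N and 0.52 in B with doxycycline against 0.23 and 0.25 without. HSPA5, the chaperone BiP, came closest, with treated means of 94.4 (I4) and 187 (H6) RPKM in N and 121 and 234 RPKM in B (0.99 and 0.95), and 105 and 148 RPKM and 130 and 180 RPKM without. In the authors' deposited table HSPA5 rose with doxycycline in H6 (1.26-fold, q = 0.0114, and 1.3-fold, q = 3.13e-05) and had folds of -1.11 and -1.07 in I4 (q = 0.120 and 0.475). The difference of 19 of the 20 genes was further towards H6 with doxycycline in both experiments, where 38.2% of all genes were.

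The median of cholesterol and fatty acid synthesis genes lay towards H6 with and without doxycycline, with few calls. Of 29 tested, 26 were positive in both experiments (45.5% of all genes were) and 1 was called towards H6 (1.05% of all genes were). This was INSIG1, which encodes a sterol-sensing retention protein (5.36 and 13.5 RPKM in N, 5.02 and 11.8 RPKM in B). The median was 0.43 and 0.52 with doxycycline and 0.31 and 0.39 without. SCD, a fatty acid desaturase gene, had treated differences of 0.98 and 0.92 and untreated ones of 0.83 and 0.89.

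Of 14 protease genes of the matrix metalloproteinase and plasminogen groups, 3 were called towards H6 and none towards I4, against 1.05% and 0.437% of all genes. Among them were PLAT, the tissue plasminogen activator gene (10.9 and 30.9 RPKM in N, 8.96 and 25.8 RPKM in B), and MMP14, a membrane-bound collagenase gene (64.2 and 172 RPKM in N, 48.9 and 136 RPKM in B). MMP14 was among the most abundant called genes, and its gap was 1.19 and 1.23 without doxycycline. Other secreted proteins higher in treated H6 were THBS1 (1.53 and 1.47), IGFBP3 (1.89 and 1.97) and CYR61 (1.15 and 1.14), and IGFBP3, an IGF-binding protein gene, had 21.6 and 80.6 RPKM in N and 19 and 74.7 RPKM in B.

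The TGF-beta and BMP list held calls both ways, ID3 and LTBP2 towards H6 and NOG and ID2 towards I4, of 27 tested, with a median of 0.06. Shares over all genes were 1.05% towards H6 and 0.437% towards I4. ID2 and ID3 encode related inhibitors of helix-loop-helix factors and are common BMP targets, yet ID2 had 8.13 (I4) and 3.54 (H6) RPKM in N and 5.8 and 2.45 RPKM in B while ID3 had 14.1 and 28.9 RPKM and 7.90 and 19 RPKM. In treated I4 the intermediate filament gene NEFL (-1.05 and -1.07), the linker histone gene H1F0 (-1.07 and -1.05) and the carnitine transferase gene CPT1A (-1.12 and -1.11) were also higher.

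Lists of proliferation genes lay near 0. Of 34 G1/S and replication genes and of 30 G2/M genes none was called, with medians of -0.03 and -0.01. Over all genes 1.49% were called in either direction, so no call in a list of this size is near that share. The same holds for the lists that follow. Of 27 poly(ADP-ribose) and NAD genes other than PARG none was called, with a median of 0.06. PARP2, the DNA-damage PARP nearest to PARP1 in role, differed most, at 16.1 (I4) and 28.2 (H6) RPKM in N and 21.4 and 40.8 RPKM in B (0.81 and 0.93), with 0.83 and 0.86 without doxycycline. PARP1 differed by 0.13 and 0.20. Transcripts of the mitochondrial genome lay slightly towards I4, with 9 of 13 negative in both experiments, where 36.0% of all genes were. None was called, and the median was -0.24 in N and -0.13 in B.

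**Figure D4:**
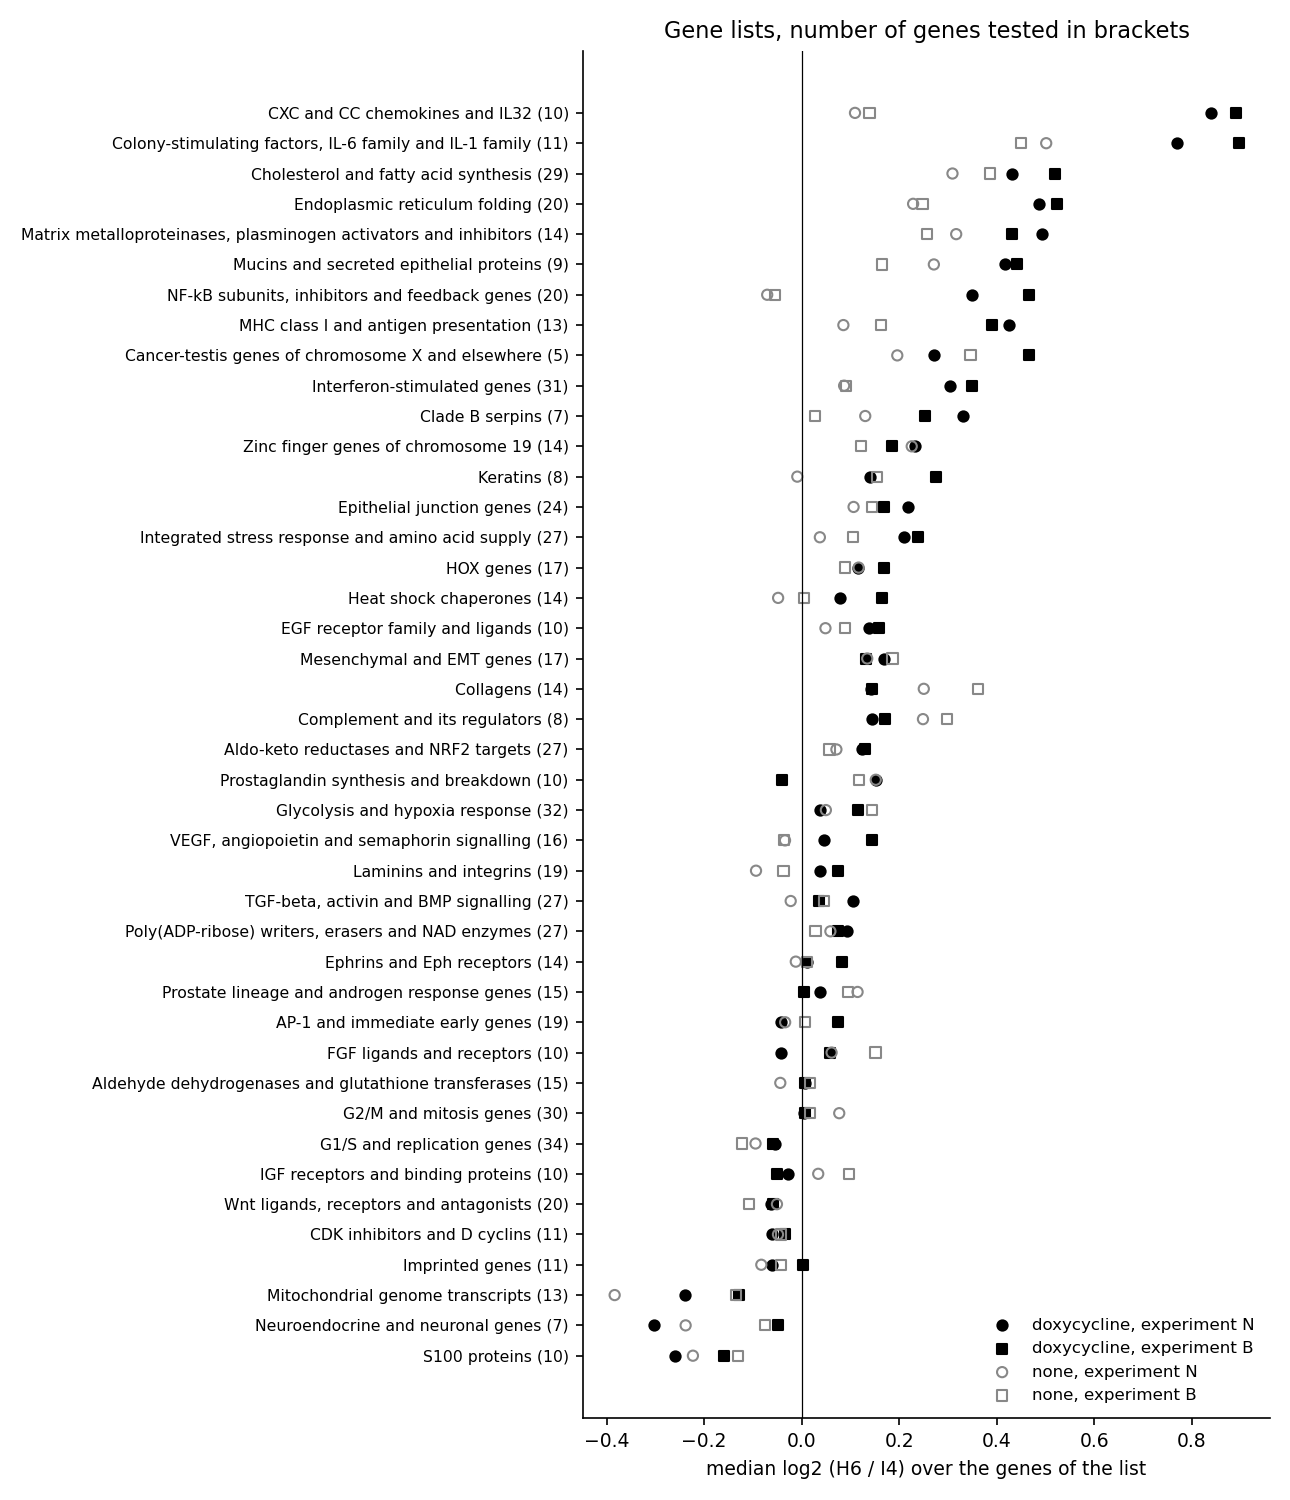
Median log2 difference between H6 and I4 (x axis) over the tested genes of each list with at least 5 of them (y axis, number of genes in brackets), with filled symbols for doxycycline and open ones for none, circles for experiment N and squares for experiment B. With doxycycline the chemokine list (0.84 and 0.89) and the list of colony-stimulating factors and IL-6 and IL-1 families (0.77 and 0.90) are furthest to the right, and the chemokine list is close to 0 without (0.11 and 0.14).

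Position on the genome was a property that the call did not use. Positions are from GENCODE 29 on GRCh38, which matched 10713 of the 10756 genes (99.6%), and windows of 10 Mb with at least 10 tested genes were summarised. The window with the highest median was chromosome 14 from 20 to 30 Mb, where 63 of 68 genes were positive in both experiments and the median was 0.60 in N and 0.66 in B. Without doxycycline its median was 0.57 and 0.61. It held 7 genes called towards H6, TEP1, RAB2B, MMP14, SLC22A17, IRF9, CMA1 and PRKD1, and also PARP2. In the next window, from 30 to 40 Mb, all 35 genes were negative in both experiments, with a median of -0.41 and -0.55, and NFKBIA is 1 of them. Of the 113 genes called towards H6, 13 were on chromosome 14, which is 3.51% of the 370 genes tested there, against 1.05% of all genes.

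On chromosome 13, 150 of 182 genes were negative in both experiments, with a median of -0.25 and -0.40, and on chromosome 2, 520 of 681 were, with a median of -0.22 and -0.26. For all genes the share negative in both was 36.0%. The lowest window was chromosome 3 from 60 to 70 Mb, with a median of -0.67 and -0.73 over 12 genes, 10 of them negative in both. IL1B, IL37 and EFEMP1 lie on chromosome 2 and are among its 5 genes called towards H6. Copy number was not measured, and its part in these differences was not tested.

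**Figure D5:**
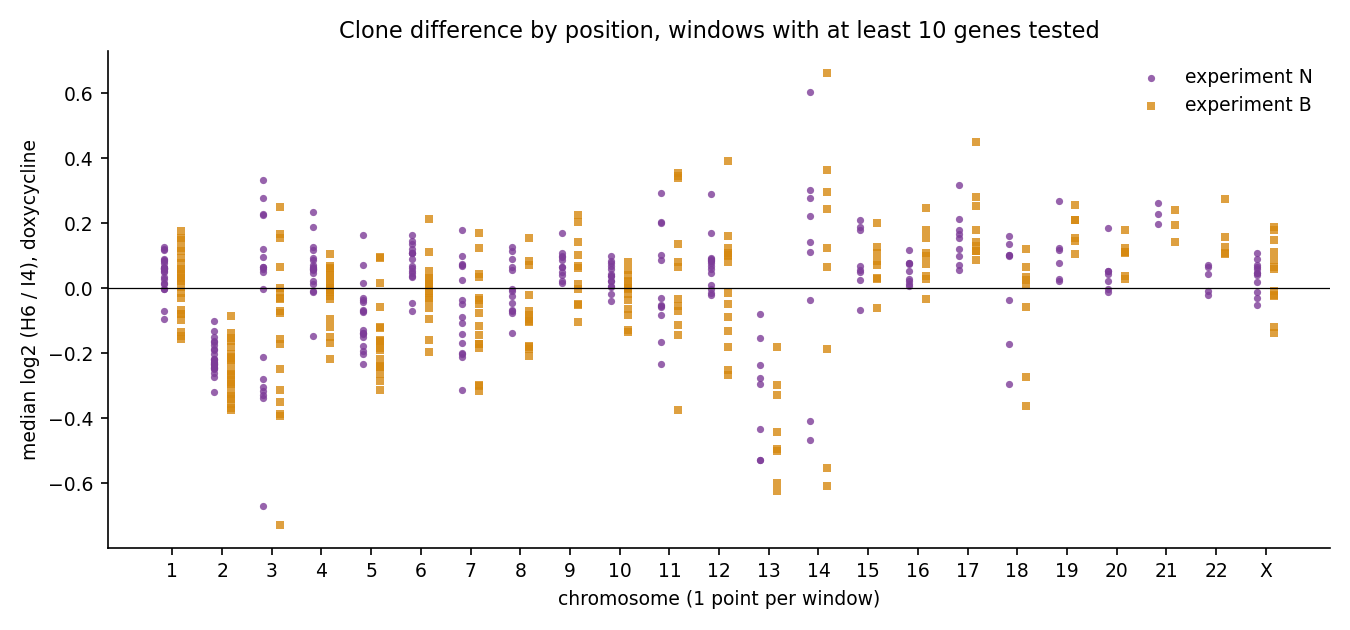
Median log2 difference between treated H6 and treated I4 (y axis) in windows of 10 Mb with at least 10 tested genes, by chromosome (x axis), in purple for experiment N and orange for experiment B. The chromosome 14 window at 0.60 and 0.66 is the highest, and all windows of chromosomes 2 and 13 lie below 0 in both experiments.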

How the data were processed

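Poly(A)-selected RNA was sequenced from wells of 2 PC-3 clones in experiments N and B, per the labels' protocols; kits that keep both strands (N) or are strand-specific (B) were used, so in N a gene and an overlapping antisense gene cannot be told apart. The submitters' processing notes name the build hg38; which aligner, counter, normalization and test were used was not given in the sources used here. Used was the authors' deposited table of 4 comparisons of doxycycline with none (1 per clone and experiment) which has no value per library. Its levels, scores whose unit the authors' deposited file does not name, are the higher of 2 group means, and were read as RPKM from the values. Its signed fold is given as the authors deposited it, and the p adjusted by them is given as the q-value.

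The treated mean was the listed level where the fold was positive and the level divided by the size of the fold where it was negative. Some means derived this way near 0 are too small for 1 read, such as 0.00114 RPKM for CHGA in untreated H6 of N. The CHGA mean with doxycycline was 0.00436 RPKM. The deposited fold is therefore not always the plain ratio of group means. A mean obtained by division is approximate, most of all at low levels. This holds for the treated I4 means of SAA1 and CSF3 and the treated H6 means of SHH. Of the 160 called genes, 35 have all 4 treated means listed directly. The clones stand in separate comparisons that may have been normalized separately, so a level set across them rests on the sums of levels given in the report. The step of 1 read in level times exon length was 0.00867 (I4) and 0.00929 (H6) in N and 0.0147 and 0.0202 in B. Low levels are therefore less precise in B. Read numbers in the report are estimates from these steps and GENCODE exon lengths. Each step was read from treated and untreated levels together, and untreated H6 in B had 2 wells, not 3. Read numbers for treated H6 in B may therefore be too low. With no values per library no test or replicate error could be had, and the count model foreseen for such values was not run. Python 3.11.15, pandas 2.3.3 and numpy 2.4.6 were used, and the calling rule was tested on simulated data.

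The comparison, its members and the 50 gene lists were chosen with earlier results of these data known. Named genes are PARG, the 15 largest smaller-of-2 differences in each direction, up to 4 called members of a list or its largest member, up to 8 genes per direction whose difference changed with doxycycline, and up to 3 called genes in the 3 highest and 3 lowest windows. The other genes named with values (such as CXCL1, CXCL2, CXCL3, CXCL8, LIF, IL37, IL1RL1, TNFAIP3, NFKBIA, PSMB9, SCD, THBS1, CYR61, CPT1A, H1F0, PARP1, TRPV4, PLEKHF1, INAVA and SGK1) were chosen after their values were seen. Names turned into dates (17 tested, 0 called) are not named, and some genes that the rule takes are not reported here. Alternatives changed the added constant, the level filter, the scaling, the fold threshold and the experiment used; the use of directly listed means alone was added after seeing the data.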

Additional observations from a re-analysis of the deposited data

Results flagged for a closer look

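In 3 genes called higher in treated H6 the clones moved in opposite directions with doxycycline, with the authors' deposited q under 0.05 in all 4 comparisons. The log2 fold with doxycycline in H6 minus that in I4, averaged over the experiments, was 0.92 for IL7R, 0.81 for INAVA and 0.68 for SGK1. In the authors' deposited table INAVA, an adaptor protein gene, had folds of -1.41 in both experiments in I4 (q = 1.55e-10 and 7.64e-09) and of 1.22 and 1.27 in H6 (q = 0.000688 and 0.0011). SGK1, a kinase gene, had folds of -1.19 in both experiments in I4 (q = 0.0278 and 0.0472) and of 1.33 and 1.36 in H6 (q = 0.00167 and 3.99e-05), and its treated means were 2.03 (I4) and 5.31 (H6) RPKM in N and 2.35 and 5.92 RPKM in B. The difference between the clones was not tested in any of the 3, because the table has no value per library.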

How the results depend on the processing

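The 113 genes higher in H6, the 47 higher in I4, the 97 called with and without doxycycline and the 9 whose gap was under 50% without it became, in that order, 57, 27, 48 and 5 with 1 RPKM added, and 18, 8, 17 and 0 at 4-fold. They became 444, 234, 395 and 61 at 1.5-fold, 209, 122, 211 and 15 from a level of 0.1 RPKM, and 210, 124, 213 and 15 with no level filter. From a level of 5 RPKM the first 3 were 45, 14 and 34, and over the 2576 genes with directly listed means alone, an alternative chosen after seeing the data, the 4 were 21, 14, 26 and 0; both have fewer genes tested by construction. In experiment N alone 19 genes had an untreated gap under 50%, and in experiment B alone 30, with 72 genes higher in I4. The share of calls higher in H6 was 70.6%, against 68.2% with differences centred on their median, 67.9% with groups scaled to the same sum and 60% over the directly listed means. Of 1119 values of the 96 named genes under the alternatives, 1013 kept their side of the threshold and no called gene changed sign; 34 of 624 list medians changed sign. No paired analysis was possible because the table has no value per library, and leaving out a replicate could not be done for the same reason. Depth limits the low group: for SAA1 it was about 3 and 2 reads.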
